A study of Homo sapiens with 20 samples.

Results

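The cereblon ligase genes described here are 8 members of the CRL4-CRBN ubiquitin ligase and of the enzymes that feed it: CRBN, DDB1, CUL4A, CUL4B, RBX1, DDA1, UBE2G1 and UBE2D3. They were chosen by name, for their role and not for a measured value, but with earlier results of these data known, out of 19617 genes in the files. Each gene was read from its GENCODE transcript with the most reads over all 20 libraries. All 8 passed the filter on low counts, among 10086 genes tested in T>C reads and 12272 tested in total reads. The cells were MM1.S, an established human multiple myeloma line with a wild-type genotype in the labels. They were given dCBP-30 at 10 nM, or the solvent DMSO, for 2, 6 or 24 h, with 3 libraries for each treatment and time and separate DMSO libraries at each time. In all 6 of these groups 4-thiouridine (4sU) was present for the last 1 h, so that RNA made in that hour carries T>C conversions after alkylation. A further 2 libraries had no 4sU and give the background of the assay. The labels do not say whether the 3 libraries of a group were separate cultures, so each p-value measures the spread between these libraries, which may be technical.

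Cereblon is the substrate receptor of a cullin-RING ligase: it holds a protein in place while the rest of the complex passes ubiquitin to it. DDB1 is the adaptor that docks the receptor on the cullin scaffold, CUL4A or CUL4B, and the far end of the cullin carries RBX1, the RING protein that recruits an E2 enzyme charged with ubiquitin. DDA1 is a small accessory subunit bound to DDB1. With cereblon, UBE2D3 is known to attach the first ubiquitin and UBE2G1 to lengthen the chain, after which the proteasome degrades the tagged protein. Thalidomide analogues bind cereblon and redirect it to new proteins, and myeloma cells depend on the loss of such proteins for their response to these drugs. dCBP-30 is a heterobifunctional degrader that uses cereblon in this way to remove the acetyltransferases CBP and p300, so the 8 genes encode the machinery on which the compound itself acts.

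The clearest change was in UBE2G1, the chain-lengthening E2: its newly made RNA was lower with dCBP-30 at all 3 times, to between 0.294 and 0.473 of the DMSO level. CUL4A fell in newly made RNA at 6 and 24 h, and UBE2D3 fell at 6 h. CRBN, the receptor, and DDB1, the adaptor, passed the test in neither direction at any time, in newly made or in total RNA, but both took a higher call at 24 h under other scalings. CRBN passed in T>C reads under each of 3 other scalings (log2 differences of 1.398 to 1.63, adjusted p = 0.0061 to 0.038). In total reads without TMM factors CRBN and DDB1 both passed, at 1.05 and 0.42, but the median gene there lay at 0.58, above DDB1. In total reads UBE2G1, CUL4A, RBX1 and UBE2D3 fell at 6 h, and CUL4B and DDA1 rose at 24 h. The 24 h decreases of UBE2G1 and CUL4A in total reads, those of RBX1 at 6 and 24 h, every 24 h call in T>C reads and the 6 h T>C calls of UBE2D3 and CUL4A depended on the scaling, as given beside them. In T>C reads the calls of UBE2G1 at 2 and 6 h passed under every scaling tried. However, 35.2% of its reads are listed as mapping to more than 1 place. On a shorter transcript nearly free of such reads, which has 3031 reads, the T>C calls at 2 and 24 h did not pass.

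Depth was between 12440700 and 18729086 reads on genes per library, and reads with a T>C conversion (T>C reads) were 4.71% to 8.62% of them in the labelled libraries against 0.794% and 0.809% without 4sU. Levels are given in RPM, the gene's reads scaled to 1000000 of the library size, which is the library's read total multiplied by a TMM factor, a number that sets the bulk of genes equal between libraries. On this scale the median gene of the T>C test moved on the log2 scale by 0.04, -0.28 and -0.69 at 2, 6 and 24 h, and that of the total read test by no more than 0.05. Without TMM factors the median gene in total reads lay at 0.35 at 6 h and at 0.58 at 24 h, so a small change of a gene at 24 h takes its sign from this choice. The study's methods describe 4sU-labelled Drosophila RNA mixed into each RNA sample as an external reference, and it was not used for scaling here. In bulk RNA, fewer cells of one kind and less RNA per cell cannot be told apart. Conversions per T>C read at 24 h were also lower with dCBP-30, 1.43 to 1.51 against 2.46 to 2.51 with DMSO, and the part of this in the members' values was not tested. The marker levels that follow are on another scale, reads per 1000000 of the library's read total without the TMM factor. Of 10 plasma cell and myeloma markers, 9 were at 1 RPM or more in each DMSO group and FCRL5 was between 0 and 0.908 RPM. Their summed level was 5329 to 6645 RPM with DMSO and 4490 to 4898, 2241 to 2374 and 818 to 1046 RPM with dCBP-30 at 2, 6 and 24 h. Of markers of other cells, 4 B cell genes reached at most 0.653 RPM each and 4 myeloid genes at most 1.04 RPM, and CD3D, a T cell receptor chain, had no read in any library. CD3E was at 1.83 to 6.72 RPM under DMSO and reached 20.7 RPM with dCBP-30, and of 4 fibroblast genes PDGFRB reached 4.75 RPM. The part of any of these in the members' values was not tested.

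The promoters below are those of the 3 members whose newly made RNA fell at 6 h, with that of CRBN, the receptor, beside them. Each is the run of 250 bases before the RefSeq start site that lies nearest to the start of the transcript used (GRCh38.p14), written 5′ to 3′ on the strand of the gene. Capitals mark matches, on either strand, to any of 10 motifs, which were chosen after the sequences had been seen.
CRBN, chr3:3179692-3179941, minus strand: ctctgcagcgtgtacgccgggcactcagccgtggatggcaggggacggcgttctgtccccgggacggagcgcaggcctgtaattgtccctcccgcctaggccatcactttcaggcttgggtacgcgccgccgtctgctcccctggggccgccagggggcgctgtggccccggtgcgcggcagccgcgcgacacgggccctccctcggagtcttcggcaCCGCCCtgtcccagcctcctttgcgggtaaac
CUL4A, chr13:113209363-113209612, plus strand: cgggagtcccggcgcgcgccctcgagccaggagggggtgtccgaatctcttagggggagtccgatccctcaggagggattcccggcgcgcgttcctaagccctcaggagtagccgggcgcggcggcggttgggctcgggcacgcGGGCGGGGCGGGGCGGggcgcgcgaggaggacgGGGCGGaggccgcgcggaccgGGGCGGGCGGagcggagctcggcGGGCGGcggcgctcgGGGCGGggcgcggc
UBE2G1, chr17:4366676-4366925, minus strand: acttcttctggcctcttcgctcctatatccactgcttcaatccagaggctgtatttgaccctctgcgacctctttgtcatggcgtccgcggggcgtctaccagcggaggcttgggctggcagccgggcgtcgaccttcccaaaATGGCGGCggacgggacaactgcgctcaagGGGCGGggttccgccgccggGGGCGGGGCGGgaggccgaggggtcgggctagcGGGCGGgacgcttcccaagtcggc
UBE2D3, chr4:102827949-102828198, minus strand: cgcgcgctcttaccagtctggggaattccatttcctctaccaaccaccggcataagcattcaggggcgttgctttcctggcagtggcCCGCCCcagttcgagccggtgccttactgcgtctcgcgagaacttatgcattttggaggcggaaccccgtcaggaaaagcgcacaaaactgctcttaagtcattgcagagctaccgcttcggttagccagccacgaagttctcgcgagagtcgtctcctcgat
The capitals are matches to the GC box GGGCGG, which read as CCGCCC on the other strand, except in UBE2G1, where a YY1-type core, ATGGCGGC, also begins at position -107 from the start site. GGGCGG matches overlap each other in the CUL4A and UBE2G1 promoters. CUL4A held 8 GC boxes, UBE2G1 4, and CRBN and UBE2D3 1 each. Among 35116 human promoter windows of this length 42.6% held at least 1 GC box and 1.30% held ATGGCGGC. The CCAAT box CCAAT was in 32.0% of all windows, the TATA box TATAAA in 10.7%, the AP-1 and BATF site TGANTCA in 6.57%, the ETS site CCGGAAGT in 3.42%, the CRE TGACGTCA in 1.65% and the NRF1 core CGCATGCG in 1.73%, and these letters are not in the windows of the 7 members searched. The E-box CACGTG, in 6.34% of all windows, was found in those of CUL4B and RBX1, and CAGGTG, in 17.5%, in that of DDB1. The CUL4B window belongs to a start site 1859 bases away from the start of the transcript used. GC content was 71.6% for CRBN, 80.8% for CUL4A, 67.6% for UBE2G1 and 56.8% for UBE2D3, against a median of 58% over all windows. A match is a description of letters and says nothing here about binding.

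CRBN, the receptor, had the fewest reads of the 8 genes, 3082 over the 20 libraries, on a 3′ UTR at 3150011 to 3150864 of chromosome 3 (hg38, minus strand) that overlaps an exon of TRNT1 on the opposite strand. Its T>C reads numbered 14 to 90 per labelled library, and the small numbers limit every statement about it. At 2 h the T>C level was 1.64, 0.990 and 0.876 RPM in the dCBP-30 libraries and 1.47, 4.72 and 1.72 RPM in the DMSO libraries. The DMSO library at 4.72 RPM stood above the rest, and the groups overlapped. The log2 difference of T>C reads was -1.19 ± 0.55 (SE, n = 3 against 3; edgeR adjusted p = 0.19). At 24 h the dCBP-30 libraries were at 4.93, 1.87 and 2.84 RPM of T>C reads and the DMSO libraries at 2.33, 1.49 and 1.38 RPM. Here the overlap was 1 DMSO library above 1 dCBP-30 library, and the log2 difference was 0.89 ± 0.53 (adjusted p = 0.19, 95% interval -0.17 to 1.95). At 6 h it was 0.13 ± 0.54 (adjusted p = 0.90). Scaled by the T>C reads of the library instead, which sets the median gene near 0, the 24 h difference was 1.54 and passed the test (adjusted p = 0.022).

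The 2 h and 24 h differences of CRBN in T>C reads were tested against each other, and they differed by 2.08 ± 0.77 on the log2 scale (edgeR interaction, adjusted p = 0.037). That call was lost when any 1 of 6 libraries was left out, which were DMSO libraries 2 at 2 h and 2 and 3 at 24 h and dCBP-30 libraries 2 and 3 at 2 h and 1 at 24 h. The difference was then between 1.35 and 1.98, with adjusted p between 0.075 and 0.26. In total reads CRBN was at 16.7, 10.6 and 12.3 RPM with dCBP-30 at 24 h and at 9.07, 10.1 and 8.19 RPM with DMSO. Every dCBP-30 library lay above every DMSO library there, but the log2 difference of 0.53 ± 0.33 did not pass the test (adjusted p = 0.17), and without TMM factors it was 1.05 and did (adjusted p = 0.0064). At 2 and 6 h the total read differences were -0.48 ± 0.33 and -0.10 ± 0.33 (adjusted p = 0.51 and 0.84).

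**Figure D1:**
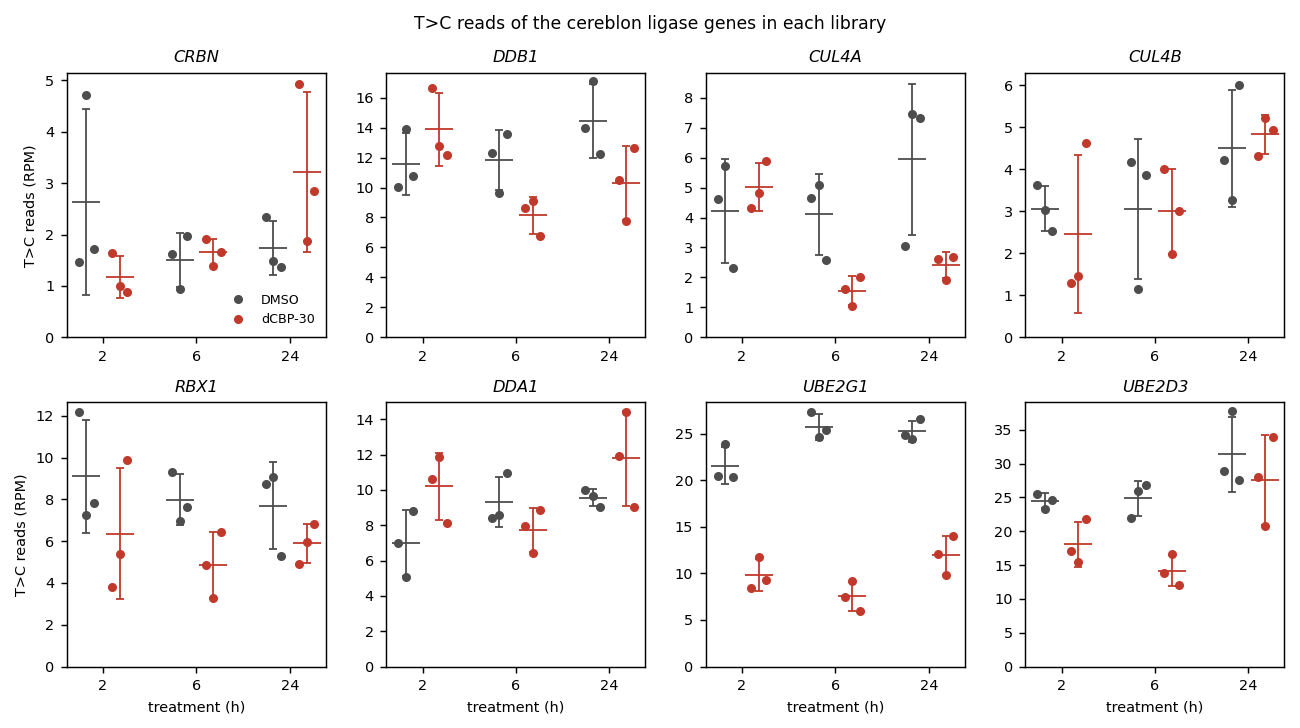
T>C reads of the 8 genes in RPM (y axis, from 0, a scale for each gene) at 2, 6 and 24 h (x axis); points are libraries, horizontal marks the mean and bars the SD of 3 libraries. The UBE2G1 libraries with dCBP-30, 6.01 to 13.95 RPM, lie below all of its DMSO libraries, while the CRBN groups overlap at each time.

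DDB1, the adaptor, is the most even of the 8 genes in total reads. Its transcript is annotated with a 3′ UTR that runs over 25 exons from 61299463 to 61330156 of chromosome 11 (minus strand), although the transcript whose UTR is 1 exon holds 80285 of its 81265 reads. Total DDB1 was between 225 and 312 RPM in all 18 labelled libraries. Its log2 differences in total reads were 0.11 ± 0.11 at 2 h, -0.11 ± 0.11 at 6 h and -0.10 ± 0.11 at 24 h (adjusted p = 0.70, 0.45 and 0.43), with a 95% interval at 24 h of -0.34 to 0.13. Without TMM factors the 24 h value was 0.42 (adjusted p = 0.0022), below the median gene of that setting at 0.58. In T>C reads the 6 h dCBP-30 libraries, at 8.61, 9.08 and 6.74 RPM, lay below the DMSO libraries at 12.3, 9.65 and 13.6 RPM, without passing the test (log2 difference -0.54 ± 0.24, adjusted p = 0.099). At 24 h the groups overlapped (-0.49 ± 0.24, adjusted p = 0.095), and scaled by T>C reads the value was 0.16. Leaving out dCBP-30 library 3 at 24 h made it -0.66 (adjusted p = 0.043).

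DDA1, the accessory subunit on DDB1, moved upward in total reads. Its 3′ UTR, at 17319657 to 17323298 of chromosome 19 (plus strand), overlaps an exon of ANO8 on the opposite strand. The dCBP-30 libraries held 187, 195 and 186 RPM at 24 h and the DMSO libraries 140, 130 and 144 RPM. The groups did not overlap, and DDA1 rose by 0.46 ± 0.12 on the log2 scale (edgeR adjusted p = 0.0015). At 6 h the dCBP-30 libraries also lay above the DMSO libraries (log2 difference 0.27 ± 0.12, adjusted p = 0.063), a difference that passed when DMSO library 1 was left out (0.37, adjusted p = 0.024) and under DESeq2 (adjusted p = 0.043). Its T>C reads did not pass at any time, with log2 differences of 0.55 ± 0.26 at 2 h, -0.27 ± 0.26 at 6 h and 0.30 ± 0.26 at 24 h (adjusted p = 0.21, 0.53 and 0.38). Scaled by T>C reads, the 24 h value was 0.98 (adjusted p = 0.0020).

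The cullin scaffolds went in opposite directions only in total reads at 24 h, and there the decrease of CUL4A depended on the scaling. CUL4A, with a 3′ UTR at 113263583 to 113267108 of chromosome 13 (plus strand), had 1.62, 1.05 and 2.02 RPM of T>C reads with dCBP-30 at 6 h against 4.66, 5.09 and 2.58 RPM with DMSO. The groups did not overlap, and its newly made RNA fell by 1.39 ± 0.41 on the log2 scale, to 0.380 of the DMSO level (edgeR adjusted p = 0.0080). Without dCBP-30 library 2 or without DMSO library 2 at 6 h the difference was -1.17 or -1.21, and did not pass (adjusted p = 0.060 and 0.0503). Without TMM factors it was -1.08 and with DESeq2 size factors from T>C reads -1.04, and neither passed (adjusted p = 0.053 and 0.055). At 24 h the libraries were at 2.63, 1.92 and 2.68 RPM against 3.04, 7.45 and 7.32 RPM, again with no overlap. CUL4A fell there by 1.30 ± 0.40 (adjusted p = 0.0064), which is a log2 difference of -0.61 from the median gene, and scaled by T>C reads the value was -0.65 and did not pass (adjusted p = 0.22). At 2 h the log2 difference was 0.25 ± 0.39 (adjusted p = 0.80).

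In total reads CUL4A was at 42.2, 42.7 and 37.0 RPM with dCBP-30 at 6 h and at 66.8, 77.4 and 71.2 RPM with DMSO, and the log2 difference was -0.82 ± 0.12 (edgeR adjusted p = 7.2e-06) in groups well apart. The 24 h values were 44.9, 44.3 and 46.9 RPM against 55.7, 70.9 and 59.5 RPM, and the log2 difference was -0.45 ± 0.12 (adjusted p = 0.0026), or 0.07 without TMM factors. CUL4B, read from a transcript with a 3′ UTR over 14 exons between 120523858 and 120544202 of chromosome X (minus strand), rose instead. Its total reads at 24 h were 93.9, 106 and 97.6 RPM with dCBP-30 and 73.6, 76.5 and 73.4 RPM with DMSO. No libraries overlapped, and the increase was 0.41 ± 0.11 on the log2 scale (adjusted p = 0.0027). At 2 and 6 h the total read differences of CUL4B were -0.24 ± 0.11 and 0.05 ± 0.11 (adjusted p = 0.29 and 0.74), and in T>C reads it passed at no time (-0.30 ± 0.44, -0.03 ± 0.44 and 0.11 ± 0.42).

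The reads of CUL4A over those of CUL4B within a library need no scaling between libraries. This ratio was 0.898 ± 0.126 with DMSO and 1.12 ± 0.115 with dCBP-30 at 2 h (SD, n = 3 each). At 6 h it was 1.11 ± 0.085 with DMSO and 0.603 ± 0.029 with dCBP-30, and at 24 h 0.831 ± 0.086 and 0.459 ± 0.035. The dCBP-30 libraries lay above the DMSO libraries at 2 h and below them at 6 and 24 h, without overlap. With 3 libraries against 3 an exact permutation test cannot go below p = 0.1, so none was run.

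**Figure D2:**
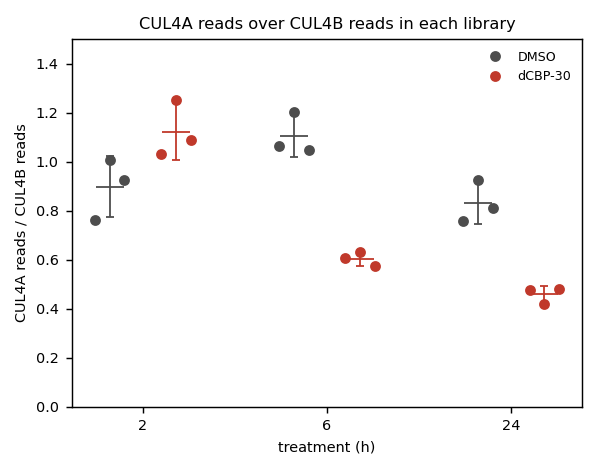
CUL4A reads divided by CUL4B reads in each labelled library (y axis, a plain ratio from 0) at 2, 6 and 24 h (x axis); points are libraries, marks the mean and bars the SD of 3 libraries. The dCBP-30 libraries fall to 0.573 to 0.630 at 6 h and 0.419 to 0.480 at 24 h, below all DMSO libraries.

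RBX1, the RING protein (3′ UTR at 40972489 to 40973309 of chromosome 22, plus strand), fell in total reads at 6 and 24 h. At 6 h the dCBP-30 libraries held 93.6, 103 and 65.9 RPM and the DMSO libraries 131, 137 and 135 RPM. The log2 difference was -0.62 ± 0.18 (edgeR adjusted p = 0.010), and without dCBP-30 library 3, the lowest, it was -0.45 and no longer passed (adjusted p = 0.061). The 24 h libraries were at 80.2, 77.4 and 80.9 RPM against 99.8, 151 and 149 RPM, a log2 difference of -0.74 ± 0.18 (adjusted p = 0.0014). Neither group overlapped the other at these times, but without TMM factors the differences were -0.30 and -0.22 and did not pass (adjusted p = 0.16 and 0.27). At 2 h the difference was -0.50 ± 0.18 (adjusted p = 0.15), with values from 109 to 153 RPM against 129 to 220 RPM, and -0.68 without DMSO library 3 (adjusted p = 0.031). T>C reads of RBX1 passed at no time (log2 differences -0.50 ± 0.31, -0.72 ± 0.32 and -0.39 ± 0.31, adjusted p = 0.38, 0.092 and 0.35). Without dCBP-30 library 3 the 6 h value was -0.98 (adjusted p = 0.039).

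UBE2G1, the E2 that lengthens ubiquitin chains on proteins brought by cereblon, was lower in newly made RNA from the first time point. Its 3′ UTR lies in 2 parts between 4269259 and 4282834 of chromosome 17 (minus strand). At 2 h the dCBP-30 libraries held 8.46, 11.7 and 9.32 RPM of T>C reads and the DMSO libraries 20.5, 23.8 and 20.3 RPM. No library of one group reached the other, and the log2 difference was -1.13 ± 0.21 (edgeR adjusted p = 3.1e-05). At 6 h the values were 7.48, 9.14 and 6.01 RPM against 27.3, 24.6 and 25.3 RPM. This was the largest change among the 8 genes in T>C reads, a log2 difference of -1.77 ± 0.21, to 0.294 of the DMSO level (adjusted p = 3.7e-10). At 24 h they were 12.1, 9.79 and 13.95 RPM against 24.9, 24.4 and 26.5 RPM, again with no overlap, and the log2 difference was -1.08 ± 0.20 (adjusted p = 1.3e-05). Measured from the median gene the 3 differences were -1.17, -1.49 and -0.39, and scaled by T>C reads the 24 h value was -0.43 and did not pass (adjusted p = 0.097).

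The total reads of UBE2G1 moved differently in time. At 2 h they were 141, 159 and 162 RPM with dCBP-30 and 180, 191 and 188 RPM with DMSO, a log2 difference of -0.28 ± 0.10 that did not pass (adjusted p = 0.14) although the groups did not overlap. At 6 h they were 66.9, 69.0 and 68.4 RPM against 211, 177 and 195 RPM, a log2 difference of -1.51 ± 0.10 (adjusted p = 6.6e-12). At 24 h they were 124, 107 and 116 RPM against 155, 152 and 145 RPM, a log2 difference of -0.38 ± 0.10 (adjusted p = 0.0022), which without TMM factors was 0.14. The decrease was deeper at 6 h than at the other times: the log2 difference changed by -1.24 ± 0.14 from 2 to 6 h and by 1.13 ± 0.14 from 6 to 24 h (adjusted p = 3.8e-07 and 6.6e-07).

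Of the UBE2G1 reads 35.2% are listed as mapping to more than 1 place, and for those the place of origin is uncertain. With those reads taken out of the total, the level was 38.9 RPM with dCBP-30 and 130 RPM with DMSO at 6 h, a ratio of 0.300 against 0.351 with all reads. The T>C reads were not corrected for such reads. A second UBE2G1 transcript, ending at 4271980 and with 0.363% of such reads, has 3031 reads in all. Its 3′ UTR lies within the one used above, so these reads are part of the same reads and not a separate set. On it the T>C log2 differences were -1.39, -2.45 and -1.54 at 2, 6 and 24 h, of which the 6 h value passed (adjusted p = 0.24, 0.0092 and 0.069). Its total reads at 6 h were 3.65 RPM against 13.2 RPM.

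UBE2D3, the E2 that places the first ubiquitin (3′ UTR at 102794386 to 102797414 of chromosome 4, minus strand), changed at 6 h. The dCBP-30 libraries held 13.8, 16.6 and 12.1 RPM of T>C reads and the DMSO libraries 21.97, 25.9 and 26.8 RPM, with no overlap, and the log2 difference was -0.81 ± 0.20 (edgeR adjusted p = 8.9e-04). It did not pass scaled by T>C reads (-0.49), without TMM factors (-0.50) or with DESeq2 size factors from T>C reads (-0.43; adjusted p = 0.053, 0.056 and 0.085). At 2 h the dCBP-30 libraries, at 17.0, 15.4 and 21.8 RPM, also lay below the DMSO libraries at 25.5, 23.3 and 24.6 RPM, without passing (-0.44 ± 0.20, adjusted p = 0.17). The groups overlapped at 24 h (-0.19 ± 0.19, adjusted p = 0.47), and the sign turned to 0.46 scaled by T>C reads (adjusted p = 0.055) and to 0.54 with DESeq2 size factors from T>C reads, which passed (adjusted p = 0.015). Total UBE2D3 fell at 6 h, from 343, 428 and 424 RPM with DMSO to 255, 256 and 189 RPM with dCBP-30, a log2 difference of -0.77 ± 0.13 (adjusted p = 2.9e-05). At 2 and 24 h the total read differences were -0.13 ± 0.13 and -0.26 ± 0.13 (adjusted p = 0.67 and 0.082). The 24 h value passed when dCBP-30 library 3 at 6 h or at 24 h was left out (-0.26 and -0.34, adjusted p = 0.044 and 0.050). It also passed in edgeR with each time fitted alone (-0.28, adjusted p = 0.015) and with reads summed over transcripts (-0.37, adjusted p = 0.012).

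**Figure D3:**
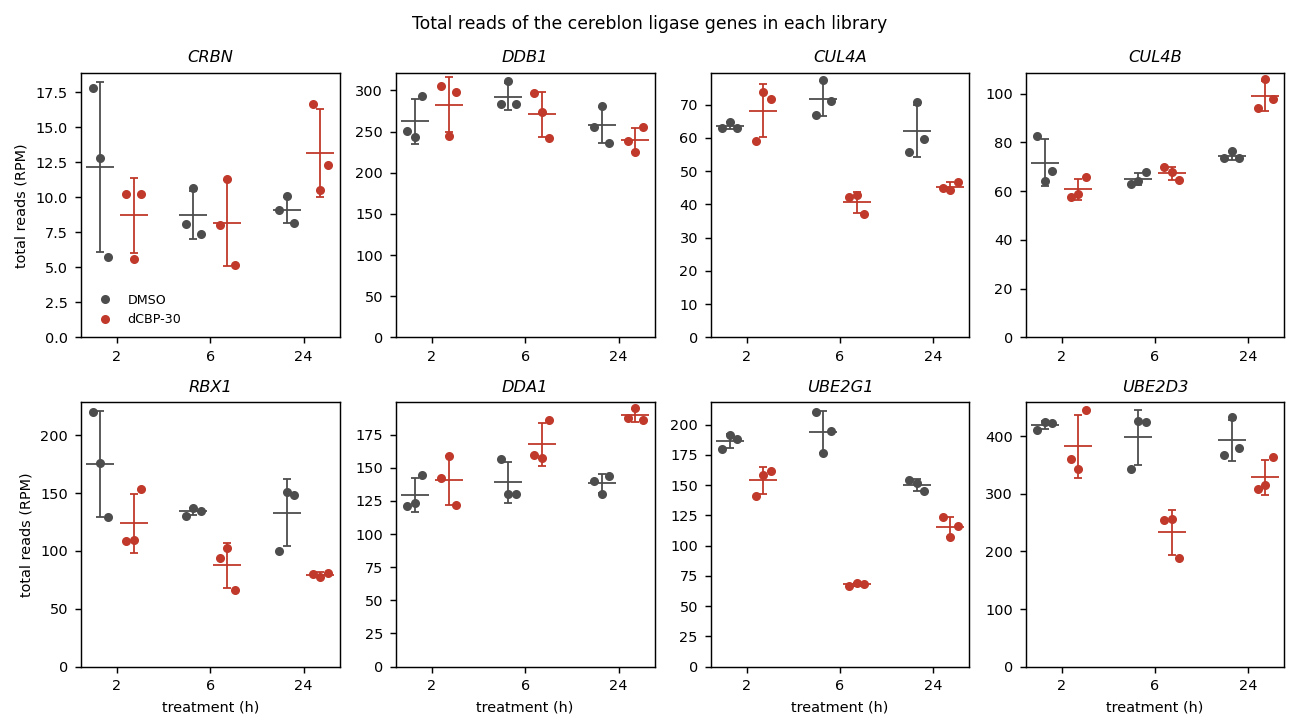
Total reads of the 8 genes in RPM (y axis, from 0, a scale for each gene) at 2, 6 and 24 h (x axis); points are libraries, horizontal marks the mean and bars the SD of 3 libraries. UBE2G1 falls from 177 to 211 RPM with DMSO to 66.9 to 69.0 RPM with dCBP-30 at 6 h, and CUL4B and DDA1 lie higher with dCBP-30 at 24 h.

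Counted over the 8 genes, newly made RNA was lower for 1 gene at 2 h, 3 at 6 h and 2 at 24 h, where 8.35%, 21.3% and 37.0% of all genes tested were called lower. It was higher for 0 of 8 at each time, beside 2.38%, 3.02% and 2.79% of all genes. Those counts of 0 are edgeR's, and DESeq2 with size factors from total reads also gave 0, while at an unadjusted p under 0.05 there was 1 at 2 h, DDA1, and 0 at 6 and 24 h. Total reads were lower for 0, 4 and 3 of the 8 genes, beside 2.70%, 21.5% and 29.8% of all genes. They were higher for 0, 0 and 2, beside 1.54%, 18.8% and 28.7%. Of these 0 counts DESeq2 gave 0 at 2 h in both directions and 1 higher gene at 6 h, DDA1. At an unadjusted p under 0.05 edgeR had 3 lower genes at 2 h (RBX1, UBE2G1 and CUL4B), 0 higher at 2 h and 1 higher at 6 h. These counts move with the scaling. In T>C reads at 24 h 0 genes were lower and 2 higher when scaled by T>C reads, 1 lower and 2 higher without TMM factors, and 0 lower and 3 higher with DESeq2 size factors from T>C reads. At 6 h 1 gene, UBE2G1, was lower in the last 2 of these settings. In total reads without TMM factors 2 genes were higher at 6 h, and 0 were lower and 4 higher at 24 h. The median log2 difference of the 8 genes in T>C reads at 2, 6 and 24 h was -0.37, -0.63 and -0.29, and that of all genes was 0.04, -0.28 and -0.69.

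**Figure D4:**
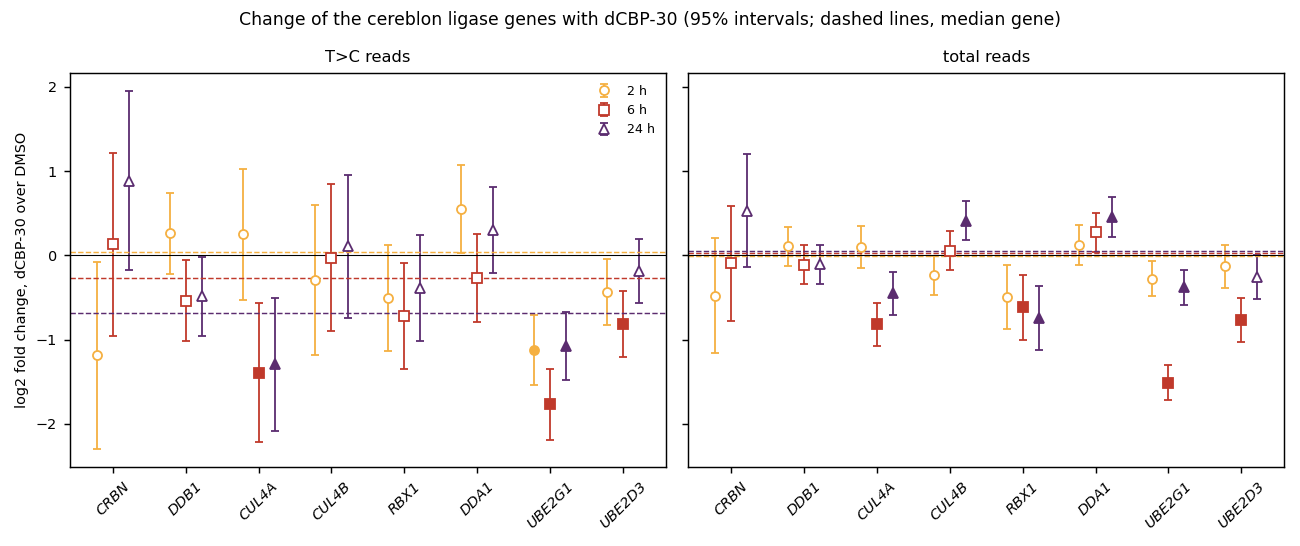
Log2 fold change of dCBP-30 over DMSO (y axis) for the 8 genes (x axis) in T>C reads (left) and total reads (right) at 2, 6 and 24 h, with 95% intervals; filled symbols have an edgeR adjusted p under 0.05 and dashed lines are the median of all genes at each time. UBE2G1 is filled at all 3 times in T>C reads, and CRBN and DDB1 at none in either panel.

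Differences between time points were tested in the same fit, and the 3 differences share libraries with each other. In T>C reads 2 of the 8 genes differed between 24 and 2 h, CRBN as given above and CUL4A by -1.54 ± 0.55 (edgeR adjusted p = 0.031), beside 25.9% of all genes in either direction. The CUL4A call was lost without any 1 of 5 libraries, dCBP-30 library 3 and DMSO library 3 at 2 h and dCBP-30 library 2 and DMSO libraries 2 and 3 at 24 h, with values of -1.41 to -1.25 (adjusted p = 0.074 to 0.11). It was also lost scaled by T>C reads, without TMM factors and with DESeq2 size factors from T>C reads (-0.90, -1.13 and -0.83; adjusted p = 0.29, 0.17 and 0.34). Between 6 and 2 h and between 24 and 6 h 0 of 8 differed in T>C reads by edgeR, beside 8.0% and 12.1% of all genes. DESeq2 gave 0 as well, and at an unadjusted p under 0.05 there were 4 and 2 genes. In total reads 3 genes differed between 6 and 2 h, UBE2G1, CUL4A by -0.92 ± 0.17 (adjusted p = 3.6e-04) and UBE2D3 by -0.64 ± 0.18 (adjusted p = 0.015), beside 15.7% of all genes. Without dCBP-30 library 3 at 2 h the UBE2D3 value was -0.51 (adjusted p = 0.054), and without TMM factors -0.43 (adjusted p = 0.090).

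Between 24 and 2 h the total read differences of CUL4A and CUL4B moved apart, by -0.55 ± 0.17 and 0.65 ± 0.16 on the log2 scale (edgeR adjusted p = 0.012 and 0.0018), beside 41.1% of all genes in either direction. Without DMSO library 2 at 24 h the CUL4A value was -0.45 (adjusted p = 0.052), and without TMM factors -0.14 (adjusted p = 0.53). Between 24 and 6 h UBE2G1 and UBE2D3 differed, UBE2D3 by 0.51 ± 0.18 (adjusted p = 0.030), beside 32.1% of all genes. Leaving out any 1 of 6 libraries ended the UBE2D3 call (0.38 to 0.49, adjusted p = 0.068 to 0.091), namely dCBP-30 library 3 at 6 h or at 24 h, DMSO libraries 2 and 3 at 6 h, or DMSO libraries 1 and 3 at 24 h. Between the DMSO libraries of 24 and of 2 h 0 of 8 differed by edgeR or by DESeq2 in either kind of read, beside 5.36% of all genes in T>C reads and 0.196% in total reads. At an unadjusted p under 0.05 there were 0 in T>C reads and 2, RBX1 and UBE2G1, in total reads.

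How much of a transcript is new after 1 h of labelling differed widely among the 8 genes under DMSO. The conversions counted per 1000 covered T positions, a rate that takes the T content of the reads into account, were 20.3 for CRBN and 12.2 for UBE2G1 over the 9 DMSO libraries. They were 6.06 for UBE2D3, 5.59 for CUL4A, 5.30 for DDA1, 4.84 for RBX1, 4.08 for DDB1 and 3.79 for CUL4B, against a median of 10.5 over all genes tested. In these pooled rates CRBN and UBE2G1 lay above the median gene, at percentiles 76.4 and 56.1, and the other 6 below it, at percentiles 14.3 to 27.8. Over single DMSO libraries CRBN ran from 5.01 to 41.8, across the median and into the range of every other member. UBE2G1 ran from 9.25 to 16.4, also across the median, and CUL4A reached 10.8. Among the other 6 the ranges over the DMSO libraries overlap, for example 1.38 to 6.25 for CUL4B and 4.84 to 8.79 for UBE2D3. The 8 genes were not put in order by a test. In the libraries without 4sU the rates were 0.138 to 0.431 for 7 genes, and CRBN had 0 T>C reads of 272, which allows a share of up to 1.10%, for counting error only.

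With dCBP-30 these rates moved in another way than the T>C reads. At 2 h UBE2G1 fell from a mean of 10.6 to 4.73 conversions per 1000 T and UBE2D3 from 5.03 to 3.66, with no overlap of libraries in either, beside 12.3% of all genes with the dCBP-30 libraries below. At 6 h, when both total and new RNA of UBE2G1 were low, its rate was 11.2 with dCBP-30 and 11.0 with DMSO, and the groups overlapped. DDB1 alone of the 8 lay below at that time, beside 16.2% of all genes. At 24 h the dCBP-30 libraries lay below the DMSO libraries for 6 of the 8 genes, all but CRBN and RBX1, and for 68.0% of all genes. The share of T>C reads showed this at 24 h for only 2, UBE2G1 (10.3% against 16.8%) and DDB1 (4.27% against 5.58%), beside 44.4% of all genes. The part of the lower number of conversions per T>C read, given above, in these rates was not tested, nor were the rates and shares themselves.

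**Figure D5:**
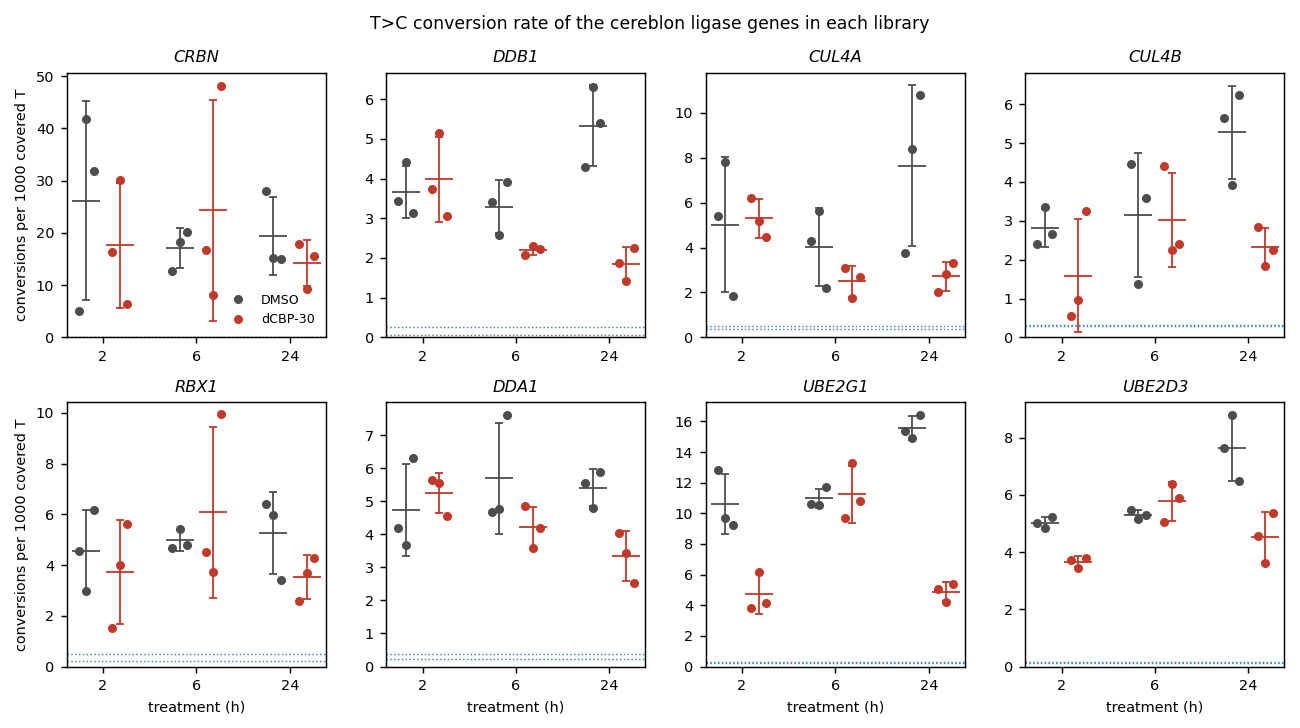
T>C conversions per 1000 covered T positions (y axis, from 0, a scale for each gene) at 2, 6 and 24 h (x axis); points are libraries, marks the mean and bars the SD of 3 libraries, and dotted lines the 2 libraries without 4sU. UBE2G1 lies at 3.85 to 6.20 with dCBP-30 and 9.25 to 12.8 with DMSO at 2 h, while the groups overlap at 6 h.

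Other parts of the ubiquitin pathway were counted from lists written from general knowledge, with earlier results of these data known. Of 23 other CRL4 substrate receptors, all tested, 0, 2 and 6 were lower in T>C reads at 2, 6 and 24 h and 0, 0 and 1 higher, with a median of -0.35 at 24 h against -0.69 for all genes. Among them DTL, the receptor that degrades replication factors, was at 0.639 ± 0.545 RPM with dCBP-30 and 21.7 ± 2.20 RPM with DMSO at 24 h (SD, n = 3; edgeR log2 difference -5.08 ± 0.33, adjusted p = 6.4e-20). DCAF4 was lower (-2.50 ± 0.68, adjusted p = 0.0022) and WDTC1 higher (2.73 ± 0.86, adjusted p = 0.0084), both on few T>C reads. DCAF4 was at 0.418 ± 0.358 RPM with dCBP-30 and 2.40 ± 0.67 RPM with DMSO. WDTC1 was at 2.25 ± 1.29 and 0.336 ± 0.188 RPM. Of 6 other cullins 3 were lower at 24 h, and CUL1, the scaffold of the SCF ligases, was lower at all 3 times (-0.78 ± 0.21, -1.71 ± 0.22 and -1.71 ± 0.21, adjusted p = 0.0075, 2.6e-09 and 1.2e-09). CUL2 and CUL3 passed at 24 h (-1.23 ± 0.46 and -1.003 ± 0.29, adjusted p = 0.028 and 0.0040). Of 11 tested genes of a list of E1 enzymes, other E2 enzymes and ARIH ligases, 4 were lower and 1 higher at 24 h. UBE2G2, an E2 of the endoplasmic reticulum, was lower (log2 difference -1.89 ± 0.32), as was UBE2D2, a close relative of UBE2D3 (-0.89 ± 0.23), while ARIH1, a RING-between-RING ligase that works with cullins, was higher at 0.63 ± 0.22 (adjusted p = 1.5e-06, 0.0010 and 0.018).

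The lists for switching cullins on and off were counted in the same way. Of 11 tested genes of cullin neddylation, 1 was lower at 24 h, UBE2M, the NEDD8-conjugating enzyme of most cullins (-1.78 ± 0.40, edgeR adjusted p = 1.9e-04), and of 12 of the COP9 signalosome and of cullin exchange, 3 were lower, COPS2, COPS3 and COPS6 (-1.32 ± 0.40, -1.47 ± 0.34 and -1.70 ± 0.55, adjusted p = 0.0067, 3.0e-04 and 0.011). The CRL2-VHL ligase, the other one commonly used by degraders, had 4 of 5 genes lower at 24 h, with ELOB, ELOC and CUL2 at -1.50 ± 0.44, -1.44 ± 0.41 and -1.23 ± 0.46 (adjusted p = 0.0049, 0.0033 and 0.028). The fourth was VHL, its receptor (-0.84 ± 0.18, adjusted p = 1.2e-04), and the fifth gene is RBX1. The median of all genes tested was -0.69 on this scale, close to the value of VHL.

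Of 8 tested genes for proteins that drug-bound cereblon degrades, 3, 5 and 6 were lower in T>C reads at 2, 6 and 24 h and 0 higher. IKZF1 and IKZF3, the lymphoid transcription factors removed by lenalidomide, had log2 differences of -2.49 ± 0.23 and -2.59 ± 0.19 at 2 h (edgeR adjusted p = 5.2e-13 and 9.1e-18), which concerns their RNA. ZNF692 was lower at 24 h (-2.83 ± 0.64, adjusted p = 2.2e-04), on few T>C reads: 0.639 ± 0.637 RPM with dCBP-30 and 4.59 ± 0.42 RPM with DMSO (SD). Of 7 tested genes for proteins that bind or modify cereblon, 1 was lower at 24 h, SLC16A1, a lactate transporter (-2.10 ± 0.61, adjusted p = 0.0041). Its T>C level was 0.722 ± 0.623 RPM with dCBP-30 and 3.12 ± 1.18 RPM with DMSO (SD). Of the targets of the compound, EP300 was higher at 24 h in T>C reads (0.94 ± 0.20, adjusted p = 1.1e-04) and CREBBP did not pass at any time, while in total reads both were higher at 6 and 24 h. The T>C counts of all these lists at 24 h stand beside 37.0% of all genes lower and 2.79% higher. Those at 2 h stand beside 8.35% lower and 2.38% higher, and those at 6 h beside 21.3% lower and 3.02% higher. In total reads at 6 h 18.8% of all genes were higher. The median gene in T>C reads lay at -0.69 at 24 h, so part of each decrease on these lists is shared by most genes. Values of the list genes under other scalings are not given here.

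The same lists gave other counts in total reads at 24 h, beside 29.8% of all genes lower and 28.7% higher. Of the 23 other CRL4 substrate receptors 6 were lower and 10 higher, of the 6 other cullins 1 and 4, and of the 11 E1 enzymes, other E2 enzymes and ARIH ligases 4 and 5. For cullin neddylation 4 of 12 were lower and 2 higher, and for the COP9 signalosome and cullin exchange 4 of 12 were lower. Of the 5 CRL2-VHL genes 2 were lower and 1 higher, of 9 genes for proteins that drug-bound cereblon degrades 4 and 2, and of 7 for cereblon binding proteins and modifiers 1 and 4. CUL3 and VHL, lower in T>C reads at 24 h, were higher in total reads (log2 differences of 0.35 ± 0.12 and 0.59 ± 0.12, edgeR adjusted p = 0.018 and 1.5e-04).

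The genes whose T>C level followed that of CRBN most closely over the 18 labelled libraries were BTN2A1, RIT1 and BAZ2B, with Pearson r of 0.73, 0.72 and 0.67 on log2 RPM, out of 7559 genes that averaged 20 or more T>C reads. These libraries share their depth and their treatments, and CRBN had a mean of 31.3 T>C reads per library, so the correlations are a description with no test. Of the other 7 members CUL4B was the most like CRBN, at 0.36, and CUL4A the least, at -0.21.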

How the data were processed

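RNA of 20 libraries was read by SLAM-seq with a 3′ end kit. Per the labels and the study's methods, reads were trimmed with Trim Galore and processed with Slamdunk on hg38. The counts that the authors deposited are reads, T>C reads, multimapping reads and conversions per annotated transcript 3′ UTR. The study tested expression with DESeq, whose results were not used here. The methods state that multimapping reads were removed, yet the deposited column of multimapping reads is above 0, with the largest share among the 8 genes for UBE2G1. Of 97466 transcript rows, 91.4% were named through GENCODE release 44, and unnamed rows held 0.0789% to 0.199% of reads. Each gene was read from its transcript with the most reads, which gave 19617 genes.

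The counts were tested in 18 labelled libraries with edgeR 4.0.16 (R 4.3.3, limma 3.58.1; robust quasi-likelihood, a mean for each of the 6 groups), with total reads times TMM as library size, filterByExpr with a minimum count of 10, and Benjamini-Hochberg adjustment over all genes at 0.05. Alternatives were other scalings, DESeq2 1.42.0, filters, transcripts, a background correction, a replicate block and each library left out. Fits were tested on simulated data. Tables were made with Python 3.11.15 and pandas 2.3.3. The deposited counts came to 12440700 to 18729086 reads per library, and the low number of T>C reads limits precision for CRBN and CUL4B. Use of molecular identifiers is not given in the sources used here, so the 0-count limit covers counting error only.

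Same-numbered libraries did not deviate together (r from -0.070 to 0.019), so no block was used. No 2 libraries of a group were copies (chi-square per degree of freedom 8.36 to 47.5). The members and the gene lists were chosen with earlier results of these data known. Named from the lists were at most 3 genes each, those with the largest T>C change at 24 h among genes with an adjusted p under 0.05 and no overlap. VHL and CREBBP were named outside that rule.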

Additional observations from a re-analysis of the deposited data

Results flagged for a closer look

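The effect of dCBP-30 differed between time points for the genes named below, by the interaction test of edgeR (adjusted p under 0.05). Values are log2 differences of the later minus the earlier time. A gene is named if it passed in any comparison in either kind of read, and the share of all genes that did so was not computed. In T>C reads, CRBN differed by 2.08 between 24 and 2 h (adjusted p = 0.037) and CUL4A by -1.54 (adjusted p = 0.031). In total reads, between 6 and 2 h, UBE2G1 differed by -1.24 (adjusted p = 3.8e-07), CUL4A by -0.92 (adjusted p = 3.6e-04) and UBE2D3 by -0.64 (adjusted p = 0.015). Between 24 and 2 h CUL4A differed by -0.55 (adjusted p = 0.012) and CUL4B by 0.65 (adjusted p = 0.0018). Between 24 and 6 h UBE2G1 differed by 1.13 (adjusted p = 6.6e-07) and UBE2D3 by 0.51 (adjusted p = 0.030). Of all genes tested, 25.9% differed between 24 and 2 h in T>C reads, and 15.7%, 41.1% and 32.1% did so in total reads between 6 and 2 h, 24 and 2 h and 24 and 6 h. The T>C call of CRBN was lost without any 1 of 6 libraries (1.35 to 1.98) and that of CUL4A without any 1 of 5 (-1.41 to -1.25), and the latter also under 3 other scalings. Both were lost with reads summed over transcripts or the background subtracted. In total reads the UBE2D3 call between 24 and 6 h was lost without any 1 of 6 libraries and with summed reads. Those of UBE2D3 between 6 and 2 h and CUL4A between 24 and 2 h were each lost without 1 library and without TMM factors. That of UBE2G1 between 24 and 6 h was lost on another transcript.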

How the results depend on the processing

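Of the results recomputed under each setting, 67 of 69 were unchanged in direction and call with DESeq2 on total-read size factors, 67 without a filter on low counts, 69 with a mean of at least 20 reads and 59 of 60 with each time fitted alone. The replicate block left 68 of 69 unchanged and turned CUL4B T>C reads at 6 h to 0.035, and it changed no call. Few T>C reads limit CRBN, CUL4A and CUL4B, and where a cause is not given below it was not tested.

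Scaling moved most. For T>C reads, values are given in the order scaled by T>C reads, without TMM factors, and DESeq2 with size factors from T>C reads. CRBN at 24 h passed, at 1.54, 1.398 and 1.63. Signs turned for DDA1 at 6 h (0.044, 0.053 and 0.10), CUL4B at 6 h (0.30, 0.29 and 0.36), RBX1 at 24 h (0.27, 0.13 and 0.36), UBE2D3 at 24 h (0.46, 0.33 and 0.54) and DDB1 at 24 h (0.16, 0.032 and 0.25). The CUL4A difference of 24 minus 2 h was lost (-0.90, -1.13 and -0.83). Lower members at 24 h numbered 0, 1 and 0 and higher ones 2, 2 and 3. At 6 h 1 member was lower in both of the last settings.

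In total reads without TMM factors, signs turned for CRBN at 6 h (0.22), DDB1 at 6 and 24 h (0.20 and 0.42), UBE2D3 at 24 h (0.26), UBE2G1 at 24 h (0.14) and CUL4A at 24 h (0.070), and CRBN at 24 h passed at 1.05. The UBE2D3 difference of 6 minus 2 h (-0.43) and the CUL4A difference of 24 minus 2 h (-0.14) were lost. Higher members numbered 2 at 6 h and 4 at 24 h, and lower ones 0 at 24 h. With no filter 1 member, RBX1, was lower at 2 h, and DESeq2 found 1 higher at 6 h, DDA1.

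With reads summed over transcripts, differences were lost for CRBN (1.72), CUL4A in T>C reads (-1.47) and UBE2D3 from 6 to 24 h (0.32), and CUL4B T>C reads at 6 h were at 0.019. UBE2D3 total reads at 24 h passed there (-0.37), and also with each time fitted alone (-0.28). With the background of the libraries without 4sU subtracted, those of CRBN (2.07) and CUL4A (-1.81) were lost. With another transcript of the gene, an alternative added after seeing the data, UBE2G1 lost its difference of 24 minus 6 h (0.89), CUL4B T>C reads at 24 h were at -0.017, and lower members numbered 0 at 2 h and 1 at 24 h; that UBE2G1 transcript has 3031 reads.

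Leaving out each of the 18 labelled libraries in turn gave ranges of 1.35 to 2.38 for the CRBN difference of 24 minus 2 h in T>C reads, -1.86 to -1.25 for that of CUL4A, -0.73 to -0.51 for UBE2D3 from 2 to 6 h, -0.65 to -0.45 for CUL4A from 2 to 24 h and 0.38 to 0.61 for UBE2D3 from 6 to 24 h in total reads. CRBN at 6 h ran from -0.12 to 0.36 in T>C reads, turning without DMSO library 2, and from -0.41 to 0.15 in total reads, turning without dCBP-30 library 3 or DMSO library 2. In T>C reads CUL4A at 2 h ran from -0.045 to 0.53 (turning without DMSO library 3), CUL4A at 6 h from -1.64 to -1.17, CUL4B at 6 h from -0.42 to 0.26 (turning without dCBP-30 library 2 or DMSO library 1 or 3) and CUL4B at 24 h from -0.080 to 0.37 (turning without DMSO library 2). Counts of members moved from 0 to 1 for lower total reads at 2 h, without DMSO library 3 (RBX1), and for higher total reads at 6 h, without DMSO library 1 (DDA1). UBE2G1 kept its direction and call in T>C reads at 2, 6 and 24 h without any 1 library.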

Other observations

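The UBE2D3 transcripts end at several places in 1 exon, so reads could be assigned to stretches of its 3′ UTR by subtracting nested transcripts, a division made after the values were seen and not tested. In the first 180 bases T>C reads at 24 h averaged 3.55 RPM with dCBP-30 and 7.91 RPM with DMSO (n = 3 each), a ratio of 0.449, and no libraries overlapped. In the stretch from there to base 1439, which holds most reads, the means were 21.2 and 21.4 RPM, a ratio of 0.993 with overlapping groups. Total reads at 24 h had ratios of 0.679 in the first stretch, without overlap, and 0.843 in the second and 1.17 beyond it, both with overlap. At 6 h the ratios of total reads in the 3 stretches were 0.712, 0.573 and 0.510.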
